A study of Mus musculus with 9 samples.

Results

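Red blood cell precursors share a small set of genes that few other cells use at a high level, and 8 of them were followed here through RNA-sequencing of splenic myeloid-derived suppressor cells (MDSCs), immature myeloid cells that restrain T cells: Hba-a1 and Hba-a2 (the adult alpha-globin chains of haemoglobin), Alas2 (the erythroid enzyme that starts haem synthesis), Slc4a1 (band 3, the anion exchanger of the red cell membrane), Car2 (carbonic anhydrase 2), Klf1 and Gata1 (transcription factors that drive the erythroid programme) and Ahsp (a chaperone of free alpha-globin). The genes were picked by name, with their values in these samples already known, so that their levels and differences are given as a description without a test. Rows were found for 7 of the 8 genes, among 23284 gene symbols in all, and Ahsp was not analysed here.

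The series holds 9 samples in 3 groups of 3, and in all of them the mice carried spindle cell tumour (SCT) allografts and the cells came from the spleen 3 weeks after the tumour cells were injected. PMN-MDSCs, the neutrophil-like subset (Ly6G+), and WT Mo-MDSCs, the monocyte-like subset (Ly6G- Gr-1+), came from C57BL/6J mice that were wild type for p16 and p21. DKO Mo-MDSCs came from C57BL/6 mice lacking both of these inhibitors of cyclin-dependent kinases. SCT cells were derived from a p16 knockout mouse, so that the tumour cells lacked p16 in every group. The labels give an age of 3 weeks, whereas the methods describe adult mice collected 3 weeks after inoculation. Whether animals were pooled is not given in the sources used here, and p-values measure the spread between these samples.

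Erythropoiesis runs from progenitors that switch on GATA1 and KLF1, through dividing erythroblasts that make haem, globin and the membrane proteins of the red cell, to reticulocytes that have lost the nucleus and keep long-lived globin mRNA. In the mouse the spleen is a site of red cell production throughout life, and it expands this production under stress. Bulk RNA from a magnetic separation does not tell fewer cells of a type from less RNA per cell.

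Expression values are FPKM, fragments scaled to transcript length and to the size of the library. How Cuffnorm scaled the libraries is not given in the sources used here. Upper quartiles of FPKM were 22.0 to 24.5, and 11299 to 11418 genes reached 1 FPKM per sample, while total FPKM ran from 494252 to 916642. Relative depth, estimated from the value of single reads in low genes, was 0.809 to 1.31 times that of WT Mo-MDSC replicate 1. It follows the library scaling, which need not equal the ratio of mapped reads. The files hold no read counts, and the depth in reads is unknown. In the libraries labelled DKO, Cdkn1a (p21) was at 5.55, 8.52 and 6.00 FPKM against 8.18, 6.46 and 8.04 in WT Mo-MDSCs, and Cdkn2a, the p16 locus, was at 0 to 0.586 against 0.432 to 0.772. Values of a whole gene do not check these labels, because the deleted exons are not given in the sources used here. By the library numbers in the labels, replicate 1 of each group belongs to a lower-numbered series and replicates 2 and 3 to a higher-numbered one.

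The positions of the genes and the sequences that bear on their values are as follows (GRCm38). Hba-a1 (chr11:32283511-32284465) and Hba-a2 (chr11:32296489-32297298) lie side by side on the plus strand, with 3 exons each. Slc4a1 is at chr11:102348824-102366203 on the minus strand, with 20 exons. Alas2 (chrX:150547375-150570638, plus strand, 11 exons) and Gata1 (chrX:7959260-7978071, minus strand, 6 exons) are both X-linked. Klf1 is at chr8:84901928-84905291 on the plus strand with 3 exons, and Car2 at chr3:14886273-14900770 on the plus strand with 7 exons.

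The 2 alpha-globin genes are shown because most stretches of read length in each occur in the other as well. Their coding sequences, 429 bases each, differ at 1 base, C381T, counted from the A of the start codon with Hba-a1 first, and the capital letter marks that base in the coding strand.
Hba-a1: gcatgcctctctggaCaaattccttgcctc
Hba-a2: gcatgcctctctggaTaaattccttgcctc
Of the 480 windows of 75 bases, the read length, in the Hba-a2 transcript, 389 (81.0%) also occur in Hba-a1, and 389 of the 625 windows of Hba-a1 (62.2%) occur in Hba-a2. How reads matching both copies were assigned is not given in the sources used here, so the division between these genes is uncertain.

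Upstream sequence is shown because GATA1, itself among these genes, binds GATA motifs in erythroid promoters. In the 250 bases before the RefSeq start site (GRCm38.p6), a GATA motif, spelled AGATAA or AGATAG with an A first and TGATAA or TGATAG with a T first, occurred on either strand in 4 of the 5 genes with a promoter sequence, with the match in capitals and each window written along the gene's own strand.
Hba-a1, chr11:32283477-32283506, plus strand: tgtccgggcaacTGATAAggattccctgca
Hba-a2, chr11:32296294-32296323, plus strand: tgtccgggcaacTGATAAggattccctgca
Alas2, chrX:150547319-150547348, plus strand: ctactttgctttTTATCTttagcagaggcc
Klf1, chr8:84901890-84901919, plus strand: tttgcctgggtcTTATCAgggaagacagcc
The first base of the match lay 183, 186, 86 and 80 bases before the start in this order, and in Alas2 and Klf1 the motif reads on the opposite strand. The Gata1 promoter held no match. The same letters were present upstream of 28 of 54 other erythroid genes (51.9%) and of 8039 of 27025 genes in all (29.7%). CACCC, the core of the motif that KLF1 binds, occurred on either strand in 5 of 5 of these genes, in 41 of 54 other erythroid genes (75.9%) and in 54.5% of all genes.

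Erythroid mRNA was abundant in every sample. Replicates are given in the order 1 to 3 throughout. Hba-a1 was at 1178, 2656 and 1633 FPKM in PMN-MDSCs, at 1110, 2529 and 1519 FPKM in WT Mo-MDSCs and at 1327, 2224 and 1655 FPKM in DKO Mo-MDSCs. Its mean over the 9 samples, 1759 FPKM, was above 99.9% of all genes in the files. The highest sample of each group was replicate 2 and the lowest replicate 1. The ranges of the 3 groups overlapped, and that of DKO Mo-MDSCs lay inside those of PMN-MDSCs and of WT Mo-MDSCs. Hba-a2, by contrast, was listed at 0 FPKM in replicate 2 of every group and at 0.0192 to 0.0193 FPKM in the other 6 samples. A single read of Hba-x, another alpha-like globin gene, was worth 0.235 FPKM at the depth of WT Mo-MDSC replicate 1, and no fold is given for Hba-a2.

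**Figure D1:**
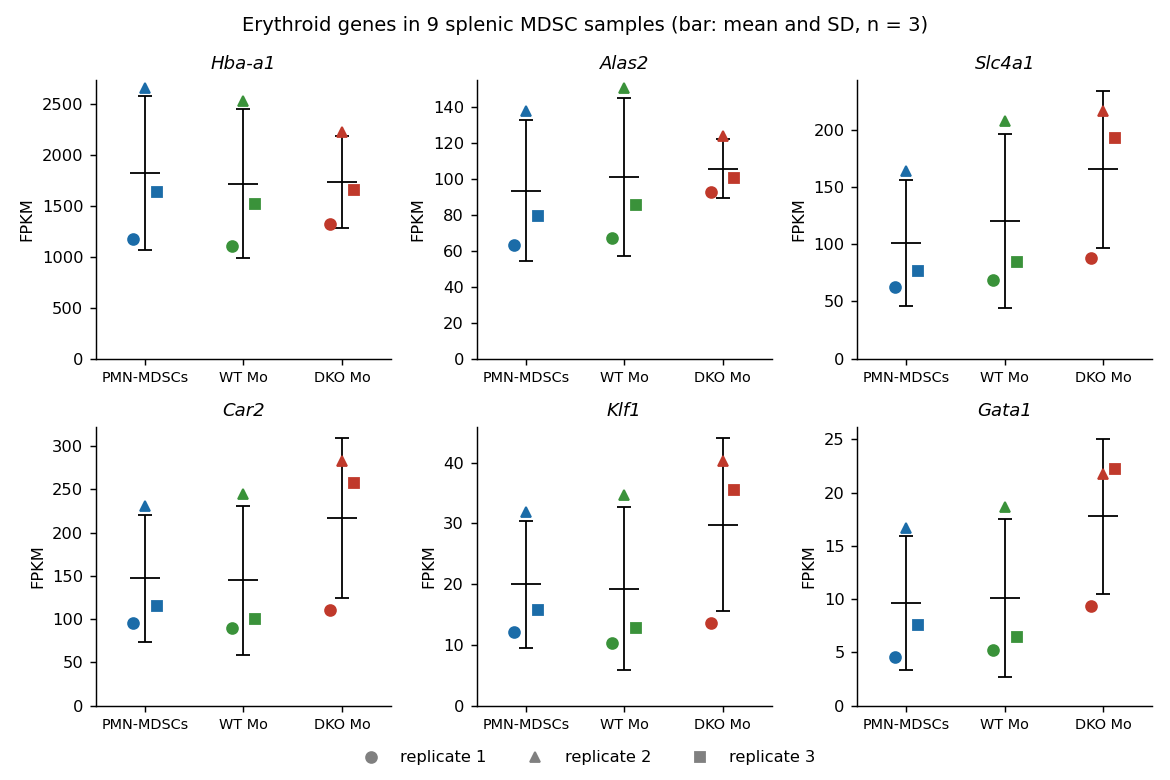
FPKM of 6 erythroid genes (vertical axes, from 0) in PMN-MDSCs, WT Mo-MDSCs and DKO Mo-MDSCs, with 1 point per sample, shapes for replicate numbers and bars for the mean and SD (n = 3). Replicate 2 is the highest sample of every group except for Gata1 in DKO Mo-MDSCs, where replicate 3 (22.2) was just above replicate 2 (21.7).

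The haem and membrane genes followed the same order of replicates. Alas2 was at 63.1, 138 and 79.0 FPKM in PMN-MDSCs, at 66.8, 150 and 85.6 FPKM in WT Mo-MDSCs and at 92.7, 124 and 100.2 FPKM in DKO Mo-MDSCs. Slc4a1 was at 62.3, 164 and 77.0 FPKM in PMN-MDSCs, at 68.7, 207 and 84.3 FPKM in WT Mo-MDSCs and at 87.7, 217 and 193 FPKM in DKO Mo-MDSCs. Replicate 2 of both groups from WT mice thus stood well apart from replicates 1 and 3, and in DKO Mo-MDSCs replicate 3 came close to replicate 2 for Slc4a1 but not for Alas2. Car2, whose product hydrates carbon dioxide in red cells, was at 95.4, 231 and 115 FPKM in PMN-MDSCs, at 89.7, 245 and 99.9 FPKM in WT Mo-MDSCs and at 111, 282 and 258 FPKM in DKO Mo-MDSCs. Car2 had the second highest level of the 6 measurable genes, behind Hba-a1.

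The 2 transcription factors were the least abundant. Klf1 was at 12.2, 31.9 and 15.8 FPKM in PMN-MDSCs, at 10.4, 34.7 and 12.8 FPKM in WT Mo-MDSCs and at 13.6, 40.3 and 35.5 FPKM in DKO Mo-MDSCs. Gata1 was at 4.56, 16.7 and 7.59 FPKM in PMN-MDSCs, at 5.19, 18.6 and 6.42 FPKM in WT Mo-MDSCs and at 9.38, 21.7 and 22.2 FPKM in DKO Mo-MDSCs. Both varied more between replicates than the globin gene did: the highest sample of WT Mo-MDSCs was 3.59 times the lowest for Gata1 and 3.35 times for Klf1, against 2.28 times for Hba-a1 and 2.25 times for Alas2.

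The same 4 samples were the highest for all 6 genes: replicate 2 of PMN-MDSCs, replicate 2 of WT Mo-MDSCs, and replicates 2 and 3 of DKO Mo-MDSCs. For Klf1 the lowest of these 4 was 2.01 times the highest of the other 5 samples, and for Car2 it was likewise 2.01 times. For Slc4a1 and Gata1 the gap was 1.87 and 1.78 times, whereas for Alas2 and Hba-a1 it was only 1.08 and 1.01 times. The within-group SD had a median of 0.75 on the log2 scale over the 6 genes, against 0.16 over the 11726 genes that reached 1 FPKM in at least 3 samples. These 4 samples come from all 3 groups, 2 of them from DKO Mo-MDSCs, and they fall among the libraries with the higher numbers, as do replicate 3 of PMN-MDSCs and replicate 3 of WT Mo-MDSCs, which did not share it.

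Other erythroid genes, from lists of globin chains, membrane and skeleton, transcription factors and receptors, haem synthesis and iron, and enzymes and maturation, varied between samples in a like way. Of 76 listed symbols 75 had a row and 69 were expressed highly enough to be tested. The same 4 samples were the highest for 48 of these 69 genes (69.6%) and for 372 of 11726 genes in all (3.17%). By list the count was 21 of 22 membrane and skeleton genes, 10 of 15 haem and iron genes, 10 of 15 enzymes and maturation genes, 5 of 13 transcription factors and receptors, and 2 of 4 globin chains. The membrane list is thus close to uniform in this order, while the transcription factors and receptors, several of which are used by other blood cells, are not. The 4 samples were picked out by the 6 genes themselves, and the counts for other genes are a description.

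**Figure D2:**
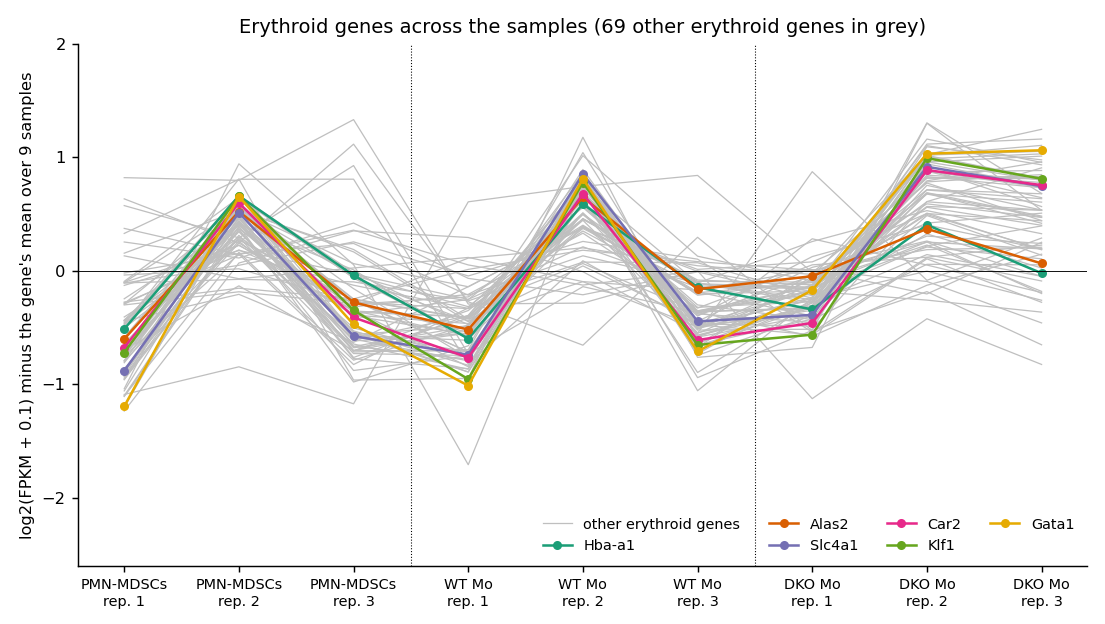
log2(FPKM + 0.1) of each gene minus its mean over the 9 samples (vertical axis) against sample (horizontal axis), with coloured lines for 6 erythroid genes and grey lines for 69 other erythroid genes. Of the grey lines 58 are highest at replicate 2 in both PMN-MDSCs and WT Mo-MDSCs, and 42 in all 3 groups.

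The pairs of genes that moved most closely across the 9 samples were Klf1 and Car2 (Pearson's r = 0.997 on the log2 scale) and Slc4a1 and Car2 (r = 0.985). The loosest pair was Hba-a1 and Gata1 (r = 0.812), followed by Hba-a1 and Slc4a1 (r = 0.844), while Hba-a1 and Alas2 were closer to each other (r = 0.943). Points share their libraries and the replicate pattern above, and no test is attached. Against the mean standardised profile of the 6 genes, the closest of 11720 other genes included Trim10 (r = 0.996), Cldn13 (r = 0.992), Cdr2 (r = 0.990), Kcnn4 (r = 0.989) and Mpp2 (r = 0.986). Cldn13, a claudin found in mouse erythroid cells, and Trim10 were on the erythroid lists, and Kcnn4 is the calcium-gated potassium channel of red cells. In all 42 of 69 other erythroid genes (60.9%) and 161 of 11720 genes (1.37%) had an r of 0.9 or more.

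The rows for beta-globin and for the minor globins add to the picture of haemoglobin. Beta-s, the row that corresponds to Hbb-bs by a RefSeq synonym, was the most abundant globin, at 1763, 3895 and 2436 FPKM in PMN-MDSCs, at 1774, 3388 and 2311 FPKM in WT Mo-MDSCs and at 2300, 2884 and 2173 FPKM in DKO Mo-MDSCs. Hbb-b2 was at 504, 1094 and 662 FPKM in PMN-MDSCs, at 460, 952 and 642 FPKM in WT Mo-MDSCs and at 580, 866 and 704 FPKM in DKO Mo-MDSCs. Both were highest in replicate 2 of every group. Hba-a1 was 2.29 to 2.66 times Hbb-b2 in the 9 samples, a narrow range beside the 2.39-fold range of Hba-a1 itself. Hbb-b1 ran from 8.07 to 35.2 FPKM without that order. Reads may be divided between near-identical beta-globin copies, so the values of Hbb-b1, Hbb-b2 and Beta-s, and the ratio to Hbb-b2, are uncertain. Hbq1b, a theta-globin gene, ran from 1.02 to 6.97 FPKM. Together Hba-a1, Hba-a2, Hbb-b1, Hbb-b2 and Beta-s made up 0.463% to 1.25% of total FPKM per sample.

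The embryonic globin genes were near the limit of a single read. Their values are whole multiples of the value of 1 read, so that reads could be counted from them, and every value lay within 2.55e-05 of a whole number of reads. Hbb-y, the embryonic epsilon-y chain, had 0 reads in each PMN-MDSC sample, 0, 1 and 0 reads in WT Mo-MDSCs and 3, 3 and 4 reads in DKO Mo-MDSCs. Hba-x, the embryonic zeta chain, had 1, 0 and 1 reads in PMN-MDSCs, 0, 3 and 0 reads in WT Mo-MDSCs and 1, 4 and 6 reads in DKO Mo-MDSCs. The Hbb-y values of DKO and WT Mo-MDSCs did not overlap, while those of Hba-x did. Per depth, DKO Mo-MDSCs had 9.43 times the Hbb-y reads of WT Mo-MDSCs, with an exact 95% interval of 1.34 to 409, and 3.46 times the Hba-x reads, with an interval of 0.913 to 19.3. These intervals cover counting error only and not the spread between replicates. Hbb-bh1 went the other way, with 6 reads in WT and 1 read in DKO Mo-MDSCs (ratio 0.157, interval 0.00342 to 1.30), Hbq1a had 4 and 5 reads, and Hbb-bh2 was listed at 0 in all 9 samples. At this depth no common direction of the embryonic globins was detectable.

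The first comparison asks whether erythroid mRNA differed between the monocytic and the granulocytic subset of WT mice. The 6 genes were at similar levels in both: the difference of WT Mo-MDSCs minus PMN-MDSCs on the log2(FPKM + 0.1) scale was 0.20 ± 0.49 (SE) for Slc4a1, 0.11 ± 0.37 for Alas2, 0.03 ± 0.59 for Gata1, -0.07 ± 0.46 for Car2, -0.09 ± 0.38 for Hba-a1 and -0.14 ± 0.51 for Klf1, with 3 samples a group. Of these 3 lay above 0 and 3 below, where 50.8% and 49.2% of all genes did. Every difference was smaller than its standard error when the replicate numbers were left out of account, and the groups overlapped for all 6 genes, whereas 26.2% of all genes were higher and 26.4% lower without overlap. Their median was -0.02, and 0.00 with Hba-a2 included, against 0.01 over 11491 genes tested. It was -0.41 without WT Mo-MDSC replicate 2 and 0.31 without PMN-MDSC replicate 2, the highest samples of their groups.

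Within equal replicate numbers the 2 subsets stood close together. WT Mo-MDSCs minus PMN-MDSCs had a median over the 6 genes of 0.00 for replicate 1, 0.12 for replicate 2 and -0.15 for replicate 3, and no single difference was larger than 0.34 in size. With the replicate number as a term of the fit, which leaves the differences as they are, the standard errors fell to 0.06 for Slc4a1, 0.04 for Alas2, 0.10 for Gata1, 0.06 for Car2, 0.06 for Hba-a1 and 0.09 for Klf1. All but that of Gata1 were then smaller than the difference, which was largest relative to its error for Slc4a1 (0.20 ± 0.06, higher in WT Mo-MDSCs). The spread between replicates of a subset, by contrast, reached 1.85 on the same scale for Gata1 in PMN-MDSCs.

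Among the other erythroid genes, limma with Benjamini-Hochberg adjustment over all genes called 4 of 69 higher and 7 lower in WT Mo-MDSCs, where 18.5% of all genes tested were called higher and 20.6% lower. Both shares of the list were below these backgrounds, at 5.80% and 10.1%, while the median standard error of the list was 0.34 against 0.12 over all genes. With the replicate numbers in the fit the median standard error of the list was 0.07. The fit used here leaves them out, so its low shares are not read as a result about the list. The genes called higher were Cbfa2t3 (1.77 ± 0.12, adjusted p = 5.95e-05 by limma), a corepressor of the erythroid GATA1 complex, Slc11a2 (0.51 ± 0.17), an iron transporter, and Lmo2 (0.38 ± 0.08) and Ldb1 (0.32 ± 0.08), bridging subunits of that complex. Cbfa2t3 was at 12.3 to 14.4 FPKM in WT Mo-MDSCs and at 3.49 to 4.41 FPKM in PMN-MDSCs, while Lmo2 was at 80.4 to 89.7 against 63.3 to 68.6 FPKM. Those called lower were Nfe2 (-1.18 ± 0.16), a transcription factor of platelet and erythroid cells, Isg20 (-1.05 ± 0.24), Kit (-1.01 ± 0.22), the receptor of stem cell factor, Alas1 (-0.88 ± 0.29), the housekeeping counterpart of Alas2, Hebp1 (-0.63 ± 0.14), a haem-binding protein, Mpp1 (-0.36 ± 0.10), a membrane scaffold, and Bnip3l (-0.32 ± 0.09), which acts in the clearance of mitochondria. Nfe2 was at 122 to 177 FPKM in PMN-MDSCs and 57.2 to 70.1 FPKM in WT Mo-MDSCs, with no overlap. Each of the 11 genes is also used outside the erythroid lineage, and none of them was among those with an r of 0.9 or more with the profile of the 6 genes. An r that high often goes with a large spread between replicates, which enters the standard error of this fit (0.51 for Rhd) and makes a call less likely. With the replicate number in the fit, Rhd (r = 0.983) and Kel (r = 0.931) were among the genes called higher. The highest r among those called lower was then 0.794, for Fam46c.

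**Figure D3:**
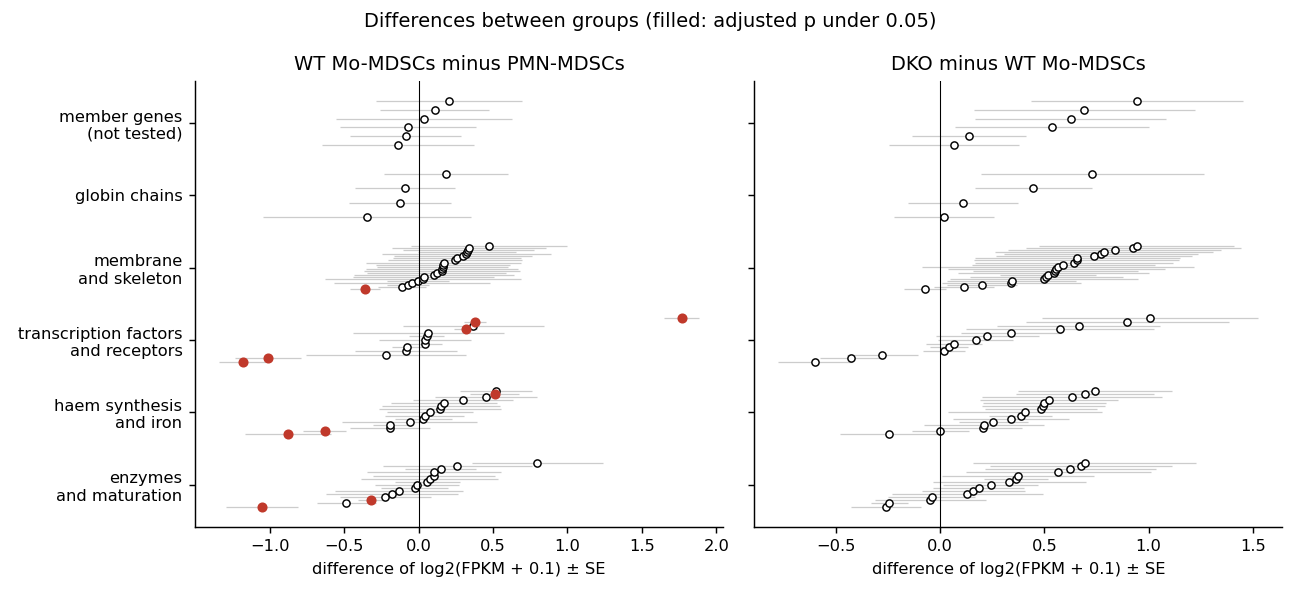
Difference of log2(FPKM + 0.1) between groups with its SE (horizontal axes) for 6 erythroid genes and for 5 lists of other erythroid genes (vertical axis), for WT Mo-MDSCs minus PMN-MDSCs at left and DKO minus WT Mo-MDSCs at right. Filled points, 11 at left and 0 at right, had an adjusted p under 0.05, and most points at right lie above 0.

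Same-numbered PMN-MDSC and WT Mo-MDSC samples deviated together, and a fit blocked on the replicate number called 19 of the 69 genes higher and 9 lower. The block also lowered the median standard error over all genes, from 0.12 to 0.07. The share of all genes called with it is not reported here, so these counts are not read as a result about the list. The genes called higher with the block were 9 of 22 membrane and skeleton genes, with log2 differences of 0.16 to 0.47, the 3 transcription factors above, 5 of 15 haem and iron genes (Abcb10, Cpox, Slc11a2, Steap3 and Uros) and 2 of 15 enzymes and maturation genes (Prdx2 and Ypel4), the names outside the first 11 having been chosen after their values were seen. The 9 called lower were the 7 above with Blvrb and Fam46c. Scaling all samples to an equal total FPKM moved the median difference of all genes from 0.01 to 0.45, and the split of the list, without the block, was then 8 higher and 3 lower; in that scaling Mpp1 and Bnip3l changed sign, and the median of the 7 genes was 0.37. Within the higher-numbered libraries alone (replicates 2 and 3) the median of the 7 genes was -0.04, and 1 gene of the list, Cbfa2t3, was called higher and 2, Isg20 and Nfe2, lower.

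Some of the highest other genes of the lists show how far the erythroid and the shared genes parted. Aqp1, the red cell water channel, was at 23.7, 67.8 and 28.4 FPKM in PMN-MDSCs, at 26.2, 80.9 and 26.8 FPKM in WT Mo-MDSCs and at 34.2, 96.1 and 88.8 FPKM in DKO Mo-MDSCs. Slc25a37, the mitochondrial iron importer mitoferrin, ran from 46.3 to 97.5 FPKM over the 9 samples, with the same 4 samples highest. Prdx2, an abundant peroxiredoxin of red cells, ran from 187 to 368 FPKM, and Blvrb, biliverdin reductase B, from 163 to 322 FPKM. Mpp1 and Ldb1, in contrast, had a within-group SD of only 0.14 and 0.09 on the log2 scale.

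The second comparison asks whether the loss of p16 and p21 went with other levels of erythroid mRNA in Mo-MDSCs. DKO minus WT Mo-MDSCs was 0.95 ± 0.51 (SE, n = 3 a group) for Gata1, 0.69 ± 0.53 for Klf1, 0.63 ± 0.46 for Car2, 0.54 ± 0.47 for Slc4a1, 0.14 ± 0.27 for Alas2 and 0.07 ± 0.31 for Hba-a1, on the log2(FPKM + 0.1) scale. All 6 differences were above 0, as were 46.5% of those of all genes, with 53.5% below. None was more than 1.86 times its standard error when the replicate numbers were left out of account, and the groups overlapped for each gene, whereas 7.96% of all genes were higher and 12.9% lower without overlap. The median was 0.58, and 0.54 with Hba-a2 included, against -0.02 over 11451 genes tested. It was 0.22 without WT Mo-MDSC replicate 1, 0.37 without WT Mo-MDSC replicate 3, 0.29 without DKO replicate 2, 0.38 without DKO replicate 3, 0.94 without DKO replicate 1 and 1.02 without WT Mo-MDSC replicate 2. The order of the genes set the transcription factors first and globin last.

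The difference was uneven over the replicate numbers. DKO minus WT Mo-MDSCs had a median over the 6 genes of 0.37 for replicate 1, 0.14 for replicate 2 and 1.28 for replicate 3, with single values of 1.77 for Gata1, 1.47 for Klf1, 1.37 for Car2 and 1.19 for Slc4a1 in replicate 3. For Alas2 and Hba-a1 the replicate 3 differences were 0.23 and 0.12, below those of replicate 1, 0.47 and 0.26. Over all genes the deviations of same-numbered samples correlated at 0.35, 0.23 and -0.07 for replicates 1 to 3. These correlations do not settle whether the numbers pair the 2 groups, although same-numbered samples have consecutive library numbers. The values by number are a description. With the replicate number as a term of the fit, the standard errors were 0.27 for Gata1, 0.24 for Klf1, 0.23 for Car2, 0.21 for Slc4a1, 0.15 for Alas2 and 0.16 for Hba-a1. Over the 69 other erythroid genes the same medians were 0.26, 0.10 and 0.89, against -0.03, 0.01 and -0.03 over all genes. Within the higher-numbered libraries (replicates 2 and 3) the median of the 7 genes was 0.63, and the lower-numbered ones hold 1 sample a group.

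Of the 69 other erythroid genes limma called 0 higher and 0 lower, where 0.166% and 0.0873% of all genes tested were called higher and lower. At an unadjusted p under 0.05, 2 were higher and 3 lower, and the smallest adjusted p of the list was 0.214 by limma. The differences of 60 of the 69 genes lay above 0, and their median was 0.41 with a median SE of 0.31. By list the median was 0.56 for membrane and skeleton genes, with 21 of 22 above 0, 0.41 for haem and iron genes, with 14 of 15, 0.28 for the 4 globin chains, with 4 of 4, 0.24 for enzymes and maturation genes, with 11 of 15, and 0.17 for transcription factors and receptors, with 10 of 13. None of the 69 was higher in all DKO samples than in all WT Mo-MDSC samples, and 3 were lower without overlap, Nfe2, Cbfa2t3 and Bnip3l, against the shares of 7.96% and 12.9% over all genes. Nfe2 was at 32.0, 52.2 and 39.5 FPKM in DKO and at 57.2, 57.5 and 70.1 FPKM in WT Mo-MDSCs, a difference of -0.60 ± 0.18 (adjusted p = 0.214 by limma). Both comparisons use the WT Mo-MDSC samples.

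Relative to Gata1, the mean levels of Hba-a1, Alas2, Slc4a1 and Klf1 were lower in DKO than in WT Mo-MDSCs. The ratio of Hba-a1 to Gata1 in FPKM was 258, 159 and 215 for PMN-MDSCs, 214, 136 and 236.5 for WT Mo-MDSCs and 141, 102 and 74.6 for DKO Mo-MDSCs, and only DKO replicate 1 reached the range of WT Mo-MDSCs. The ratio of Alas2 to Gata1 was 12.9, 8.06 and 13.3 in WT and 9.88, 5.70 and 4.51 in DKO Mo-MDSCs, again with an overlap. For Slc4a1 it was 13.2, 11.1 and 13.1 in WT and 9.34, 9.98 and 8.68 in DKO Mo-MDSCs, and for Klf1 2.00, 1.86 and 1.99 in WT and 1.45, 1.85 and 1.60 in DKO Mo-MDSCs, where the groups did not overlap but, for Klf1, came within 0.00868 of each other. The ratios were chosen after the values had been seen, they share Gata1, and they were not tested. Gata1 had the largest difference of the 6 genes between DKO and WT Mo-MDSCs, 0.95 against a median of -0.02 over all genes tested. A ratio to Gata1 is therefore lower in DKO Mo-MDSCs for genes that rose less than Gata1, on the erythroid lists or not. The share of all genes with a lower or non-overlapping ratio is not reported here. In WT Mo-MDSCs and PMN-MDSCs alike the ratio of Hba-a1 to Gata1 was lowest in replicate 2, the sample with the most erythroid mRNA.

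**Figure D4:**
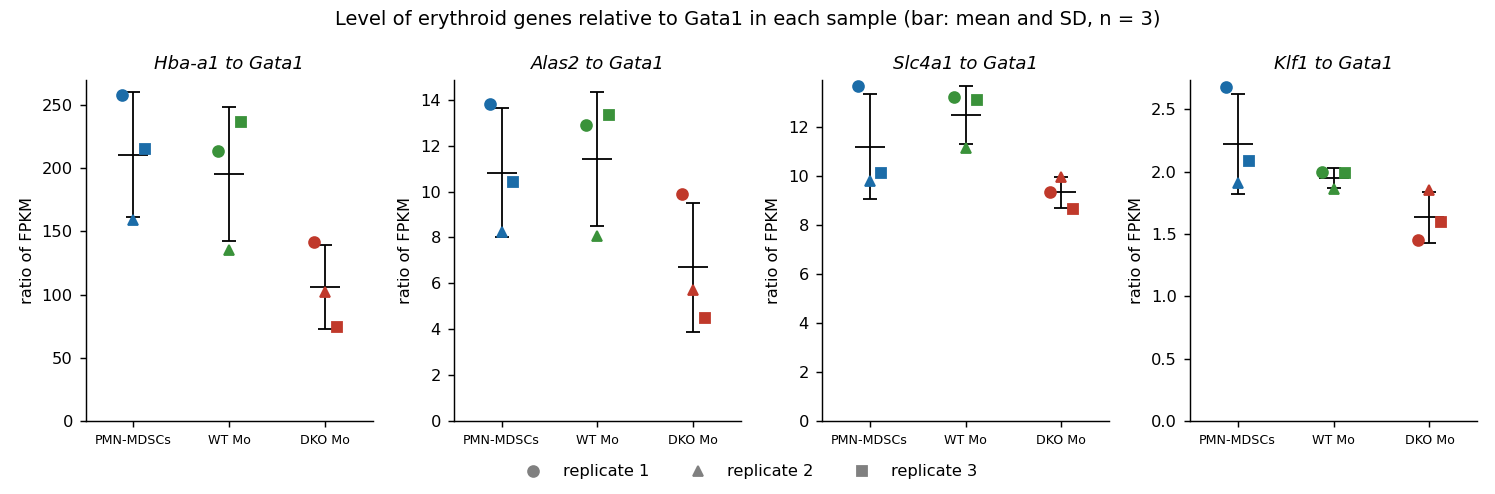
Ratio of the FPKM of Hba-a1, Alas2, Slc4a1 and Klf1 to that of Gata1 (vertical axes, from 0) in each sample of PMN-MDSCs, WT Mo-MDSCs and DKO Mo-MDSCs, with shapes for replicate numbers and bars for the mean and SD (n = 3). The mean ratio of Hba-a1 to Gata1 was 211, 195 and 106 in this order.

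Markers of other cells were set beside these values. Sums of neutrophil and monocyte markers separated the subsets as labelled, with 9 neutrophil genes summing to 99108 to 232451 FPKM in PMN-MDSCs and to 17845 to 61815 in WT Mo-MDSCs, and 10 monocyte genes summing to 1442 to 1615 in PMN-MDSCs and to 2871 to 3183 in WT Mo-MDSCs. The neutrophil sums came mostly from S100a8 and S100a9. Taken singly, Camp, Ltf, Ngp, Csf1r and Cd68 overlapped between these groups, and the other genes of both lists did not. In DKO Mo-MDSCs the neutrophil genes summed to 7017 to 17074 FPKM and the monocyte genes to 2331 to 2611 FPKM, both below WT Mo-MDSCs without overlap. Taken singly, Mmp8 (71.7 to 112 against 42.3 to 55.2 FPKM) and Irf8 (142 to 151 against 134 to 141 FPKM) were higher in DKO than in WT Mo-MDSCs without overlap. Camp, Mmp9, Cxcr2, Csf1r, F13a1 and Cd68 overlapped, and the other measured genes of both lists were lower without overlap. All 10 red-pulp macrophage genes were expressed, and their sum was 8492 to 9432 FPKM in PMN-MDSCs, 5325 to 6397 in WT and 6707 to 9696 in DKO Mo-MDSCs. Macrophages of the red pulp take up old red cells, and their markers followed the order of the erythroid genes only in part. Their sum was highest in replicate 2 of PMN-MDSCs (9432) and of WT Mo-MDSCs (6397), as for the erythroid genes. Taken singly, Spic and Slc40a1 were highest in replicate 1 and Hmox1 in replicate 3 of both groups, and the other genes of the list in replicate 2. In DKO Mo-MDSCs replicate 1, low in erythroid genes, had the highest sum (9696). Platelet and megakaryocyte cells, which also use Gata1, were weakly marked. Gp6 was at 0 in 5 of 9 samples, 5 of 10 genes of that list reached 1 FPKM in any sample, and Pf4 was at 1.17 to 5.00 FPKM. Its sum, 34.0 to 52.9 FPKM, came mostly from Clec1b (24.8 to 44.8 FPKM), which myeloid cells express as well.

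Mast cells, basophils and eosinophils share Gata1 too, and of their 10 markers 3 reached 1 FPKM (Prg2, Siglec5 and Ccr3), while Mcpt8, Cpa3, Fcer1a, Ms4a2, Prss34, Epx and Ear1 stayed under 1 FPKM and were each at 0 in 1 to 6 samples. The sum was 155 to 190 FPKM in PMN-MDSCs, 103 to 136 in WT and 119 to 188 in DKO Mo-MDSCs. Among stem and progenitor markers Hoxa9 was at 0 in 7 and Mecom in 5 of 9 samples, 4 of 7 reached 1 FPKM, and their sum, nearly all of it from Ly6a, was 195 to 201 FPKM in PMN-MDSCs, 142 to 153 in WT and 124 to 135 in DKO Mo-MDSCs. The 7 B cell genes measured summed to 1556 to 1800, 1129 to 1279 and 1197 to 1535 FPKM in these groups, and the 7 T and NK cell genes to 20.0 to 28.7, 13.7 to 18.0 and 12.9 to 19.1 FPKM. In WT and DKO Mo-MDSCs the highest B cell samples were replicate 1 and replicate 3.

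Of all the lists, cell cycle genes came nearest to the erythroid pattern, in part. The mean centred log2 value of 10 cell cycle genes reached -0.42, 0.05 and -0.03 for PMN-MDSCs, -0.21, 0.29 and 0.27 for WT Mo-MDSCs and -0.52, 0.36 and 0.22 for DKO Mo-MDSCs. The corresponding value of the 6 erythroid genes was -0.76, 0.60 and -0.35, then -0.76, 0.73 and -0.45, then -0.33, 0.77 and 0.57. Replicate 1 was the lowest of each group on both measures, but in replicate 3 of PMN-MDSCs and WT Mo-MDSCs the cell cycle genes were close to replicate 2 while the erythroid genes were not. The sum of the cell cycle genes was 216 to 302 FPKM in PMN-MDSCs, 248 to 366 in WT and 210 to 394 in DKO Mo-MDSCs. The part of cell cycle genes, of other cell types and of the library series in the erythroid differences was not tested.

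**Figure D5:**
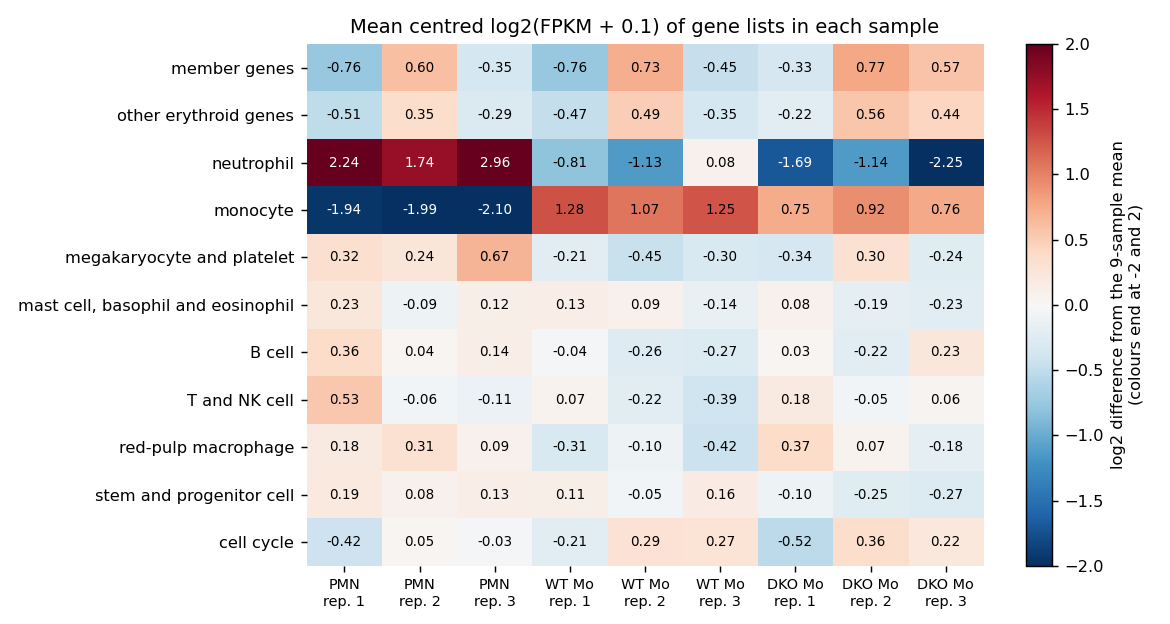
Mean over the genes of a list of log2(FPKM + 0.1) minus each gene's mean over the 9 samples, for 6 erythroid genes (top row), 69 other erythroid genes and 9 lists of cell type and cell cycle markers (vertical axis) in each sample (horizontal axis, PMN for PMN-MDSCs), with colours ending at -2 and 2. Both erythroid rows are above 0 in replicate 2 of each group and in replicate 3 of DKO Mo-MDSCs and below 0 in the other 5 samples, an order that none of the 9 marker lists has.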

How the data were processed

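RNA-sequencing of 9 samples was analysed, grouped by the sample labels. The authors extracted RNA with the mirVana kit, prepared TruSeq stranded mRNA libraries, sequenced 75-base single-end reads on a HiSeq instrument, mapped them to mm10 with TopHat2 2.0.13, Bowtie2 2.2.3 and SAMtools 0.1.19, and deposited FPKM from Cuffnorm 2.2.1. The annotation and the scaling by Cuffnorm are not given in the sources used here.

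Values were used as deposited. Differences are on log2(FPKM + 0.1), which understates those of low genes. Genes reaching 1 FPKM in 3 or more of the 6 samples were fitted with limma 3.58.1 (eBayes with trend; R 4.3.3), without covariates and with the 2 groups compared only, and called at a Benjamini-Hochberg adjusted p under 0.05. The genes and lists were chosen with earlier results of these data known. Named genes are the 8 erythroid genes, all globin rows, called genes of the lists, the 3 highest of each list, the 6 closest in profile and the markers, of which some are not reported here. Listed symbols missing as such were matched by RefSeq synonyms (GRCm38.p6), positions come from GENCODE M21, and promoters from RefSeq. The row symbols Beta-s and Siglec5 stand for Hbb-bs and Siglecf, and Ly6g, Ighm, Trac, Hbb-bt and Ahsp were not analysed here.

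Replicate numbers pair WT Mo-MDSCs with PMN-MDSCs: from the data, deviations of same-numbered samples correlated at 0.200 to 0.483 over all genes. On simulated data with 200 genes changed by 1.5 (log2), the main fit recovered 91% in WT Mo-MDSCs against PMN-MDSCs (11491 genes). It recovered 88.5% in DKO against WT Mo-MDSCs (11451 genes). The changed genes were drawn from all genes tested, and each gene was simulated independently and without a replicate effect. These rates do not give the power for the 69 other erythroid genes, whose median standard errors were 0.34 and 0.31. The median standard error over all genes was 0.12 in both comparisons. Alternatives were other pseudocounts, filters and scalings, a fit of all 9 samples, no variance moderation, the replicate block, replicates 2 and 3 only, and leaving out samples; leaving out replicate 2 of every group was added after seeing the data.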

Additional observations from a re-analysis of the deposited data

How the results depend on the processing

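The samples are few and the depth in reads is unknown, so small changes of low genes were not detectable. Calls in DKO against WT Mo-MDSCs were too few in most settings to compare lists, and 0 of the 69 other erythroid genes were called higher or lower under any alternative run, with 0 to 43 higher and 1 to 4 lower at an unadjusted p under 0.05. The causes of the changes below were not tested.

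In WT Mo-MDSCs against PMN-MDSCs the counts of other erythroid genes (4 higher, 7 lower) became 8 and 3 with equal total FPKM, 1 and 2 with replicates 2 and 3 only, 19 higher with the replicate block, 3 lower with quantile normalization and 1 lower without variance moderation. Leaving out 1 sample gave 2 to 4 higher, with 2 without WT Mo-MDSC replicate 2 or 3, and 4 to 7 lower, with 4 without PMN-MDSC replicate 3 or WT Mo-MDSC replicate 1. With equal total FPKM, Bnip3l (0.13) and Mpp1 (0.084) changed sign. Leaving out replicate 2 of every group gave 5 higher and 7 lower. Over all genes the counts (2121 higher, 2371 lower) became 5853 and 937 with equal total FPKM, 1191 and 1568 with replicates 2 and 3 only, 1323 higher without replicate 2 of every group, and 1378 to 1798 higher and 1739 to 2113 lower without 1 sample.

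In DKO against WT Mo-MDSCs same-numbered samples correlated at -0.07 to 0.35 over all genes, which does not settle whether their numbers pair them. The replicate block called 0 other erythroid genes (smallest adjusted p = 0.180 by limma, 32 higher and 4 lower unadjusted) and 6 genes of all lower. Over all genes the counts (19 higher, 10 lower) became 9 and 4 without the filter, 0 and 0 without variance moderation, 6 and 0 with replicates 2 and 3 only, 10 and 4 without replicate 2 of every group and 26 lower with all 9 samples in 1 fit, and leaving out 1 sample gave 6 to 16 higher and 1 to 9 lower. The median difference of the erythroid genes with a row was -0.41 to 0.31 without 1 sample in the first comparison and 0.22 to 1.02 in the second, and under the other alternatives -0.04 to 0.37 and 0.53 to 0.77.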
